A study of Mus musculus with 148 samples.

Results

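Lungs of mice that stayed free of detectable metastasis after their primary tumor was removed were compared with lungs of control mice, by the share of each immune population and by gene expression summed per mouse. The comparison took 23 of the 148 plates of the series: 14 plates from 6 mice with the status relapse-free that were sorted without a GFP gate, and 9 plates from 3 mice with the status normal. Together they held 4968 of the 23425 annotated immune cells with at least 500 unique molecular identifiers (UMIs, counts of distinct captured RNA molecules), 2904 from relapse-free and 2064 from control lungs.

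The study followed the immune cells of the lung as EO771 breast cancer spread to it. Single CD31- CD45+ cells (blood cells, with vessel-lining cells gated out) were sorted from digested lungs into wells and profiled by SPID-seq, a plate-based single-cell RNA sequencing of the 3' ends of messages. All of these mice are labelled C57/b6 PA-GFP (they carry photoactivatable GFP), and whole lungs were used in both groups. The relapse-free mice were females that received EO771 cells marked with tdTomato in the right inguinal mammary gland at 8 weeks of age, had the tumor resected 3 weeks later and were followed by weekly CT. In these lungs no metastasis was found by CT, tissues were inspected for tdTomato under the microscope, and the study allows that some tumor cells may have remained. Control lungs carry the area and status normal and were not photoactivated, and their labels give neither an age nor an operation. The tumor, its resection and the time since then are therefore not separated in this comparison. In mouse 6 and mouse 7 the lungs were also sorted by GFP after photoactivation (15 plates, not used here). The labels give these mice the status relapse-free. The composition figure of the study counts 3 control and 6 relapse-free samples, which matches the mice so labelled. Its text speaks of control lungs for the photoactivation check, and this difference in wording was not resolved. Mice 6 and 7 are kept here by their labels, and the main values are given below without them too.

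The 3 control mice were all sequenced in 1 batch that held no other plate of the series, and none of the 6 relapse-free mice had a cell in it, so batch and group cannot be told apart in any comparison between them. Each mouse gave 148 to 743 relapse-free or 598 to 782 control cells, with a median of 691 to 1946 UMIs a cell in relapse-free and 930 to 1057 in control mice; relapse-free mouse 29 was the smallest and shallowest. Mitochondrial transcripts took 2.62 to 3.53% of UMIs. Of the marker genes of each lineage, 7 of 7 for monocytes, 9 of 9 for T cells, 7 of 7 for NK cells, 5 of 5 for neutrophils, 5 of 5 for B cells and 7 of 8 for macrophages (all but Cd68) were highest in the lineage they mark. The authors annotated these same counts with marker genes, so this outcome was largely fixed in advance. The mouse was the unit of replication throughout, and p-values measure the spread between these mice.

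Monocytes of the mouse lung come in 2 main forms. Classical monocytes leave the bone marrow, enter tissues where inflammation calls them and carry genes of adhesion, matrix and S100 proteins, among them Fn1 (fibronectin), Vcan (versican) and Chil3. Non-classical monocytes patrol the inner face of vessels, depend on the transcription factor Nr4a1 and carry Ace, Spn and Cd36. The annotation of the study names Mon_Fn1 and Mon_Ace after such genes, together with the smaller Mon_MHC-II and Mon_Thbs1. The text of the study uses the word classic for Mon_Ace, whereas here classical and non-classical name gene lists in the sense just given. In control lungs Ly6c2, the Ly6C antigen of classical monocytes, was at a mean of 43.6 CPM in Mon_Ace and 1938 CPM in Mon_Fn1, and Nr4a1 at 1036 and 646 CPM.

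The mix of these 2 subpopulations differed between the groups. Mon_Ace made up 59.0% ± 4.14 of the monocytes of control lungs (SD, n = 3 mice) and 39.5% ± 7.78 of those of relapse-free lungs (n = 6 mice). In the controls it took 62.3, 54.4 and 60.4% of the monocytes of mouse 1, 2 and 3. In relapse-free mice 6, 7, 11, 18, 29 and 35 it took 42.2, 45.8, 36.8, 32.5, 30.0 and 50%. Every relapse-free lung thus lay below every control lung.

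Mon_Fn1 moved the other way, from 23.8% ± 0.944 of monocytes in control lungs to 41.2% ± 5.28 in relapse-free lungs. The controls held 23.0, 24.8 and 23.8% (mice 1 to 3), and the relapse-free mice held 43.1, 35.6, 48.2, 45.0, 40.0 and 35.0% in the order given above. The 95% Wilson interval, which covers counting error only, ran from 39.3 to 57.3% in mouse 11 with 114 monocytes and from 24.6 to 57.7% in mouse 29 with 30. Both differences gave p = 0.0119 in a two-sided exact permutation test, the smallest p that 84 splits of 9 mice allow, and an adjusted p of 0.149 over the 25 subpopulations tested. Of these 25, 3 (12%) were called at an unadjusted p below 0.05 in the exact test. With all immune cells as the denominator, or without mice 6 and 7, Mon_Fn1 was the 1 subpopulation called. An edgeR count model of the cell numbers gave Mon_Fn1 a log2 fold change of 0.79 (adjusted p = 0.0217 over the 25) and Mon_Ace one of -0.56 (adjusted p = 0.153).

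**Figure D1:**
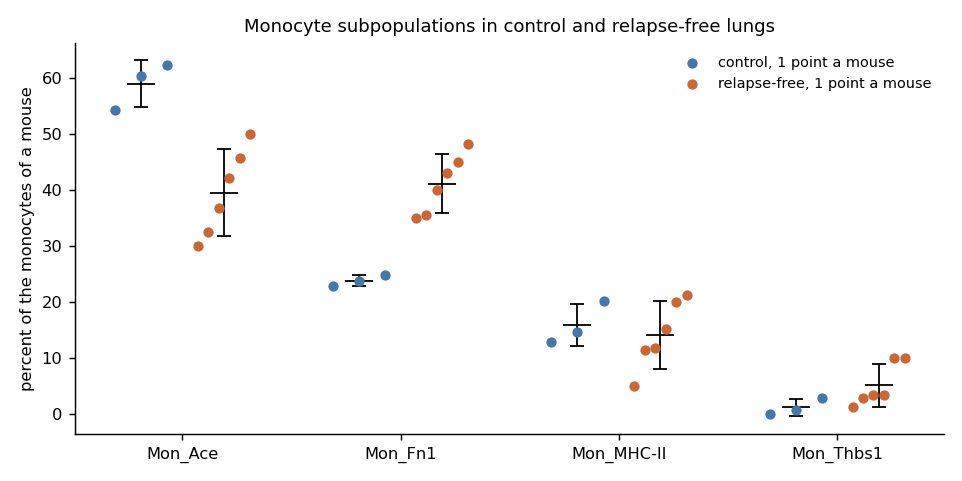
Share of each monocyte subpopulation among the monocytes of a mouse, in percent. Points are mice (3 control, 6 relapse-free), and the bars are the mean and SD; for Mon_Ace every relapse-free point (30.0 to 50%) lies under the lowest control (54.4%), and for Mon_Fn1 every relapse-free point (35.0 to 48.2%) lies above the highest (24.8%).

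The other subpopulations of monocytes did not separate the groups. Mon_MHC-II, monocytes with antigen-presentation genes, took 15.9% ± 3.77 in control and 14.1% ± 6.05 in relapse-free lungs (exact permutation p = 0.679). Mon_Thbs1 took 1.21% ± 1.56 and 5.18% ± 3.82 (exact permutation p = 0.119), and its relapse-free values reached from 1.25 to 10.0%. Without control mouse 3 its control mean was 0.336%.

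As a single measure, the log2 ratio of Mon_Fn1 to Mon_Ace cells (1 cell added to each) was -1.28 ± 0.15 in control and 0.07 ± 0.41 in relapse-free lungs. The controls stood at -1.41, -1.11 and -1.31, and the relapse-free mice at 0.03, -0.35, 0.38, 0.46, 0.38 and -0.50, again without overlap. The difference of 1.34 had an exact permutation p of 0.0119 and an adjusted p of 0.0476 over the 4 ratios tested. It was 1.46 without mice 6 and 7 (exact permutation p = 0.0571).

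This ratio was also set beside those of 2 other lung groups, a comparison chosen after the control values were seen. Pre-MET lungs, taken while the primary tumor was in place, had ratios of 1.28, 1.55 and 2.02 (3 mice). Distal normal lung, the tissue away from metastases of the same lung, had a median of 2.02 and a range of -0.17 to 3.33 (14 mice). Relapse-free lungs lay below Pre-MET lungs by 1.55 (exact permutation p = 0.0119) and below distal normal lung by 1.82 (permutation over all 38760 splits, p = 0.00129), with adjusted p of 0.0119 and 0.00258 over these 2 comparisons. They overlapped with 2 of the distal normal lungs, at -0.17 and 0.06.

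For 5 of the 6 relapse-free mice, some mice of these groups shared at least 1 sequencing batch and are called batch mates here. Each ratio pooled all plates of a mouse, also those from other batches, so batch was not held fixed. Mouse 6 (0.03), which was sequenced in several batches, lay below 3 Pre-MET batch mates (1.28 to 2.02), and mouse 7 (-0.35) below 2 (1.55 to 2.02). Mouse 18 (0.46) lay below 1 distal normal lung (3.33), mouse 29 (0.38) below 7 (1.22 to 3.27) and mouse 35 (-0.50) below 2 (0.06 to 2.12). Each relapse-free lung with a batch mate was therefore below all of its mates. Mouse 11 had none, and no such comparison exists for the control lungs.

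**Figure D2:**
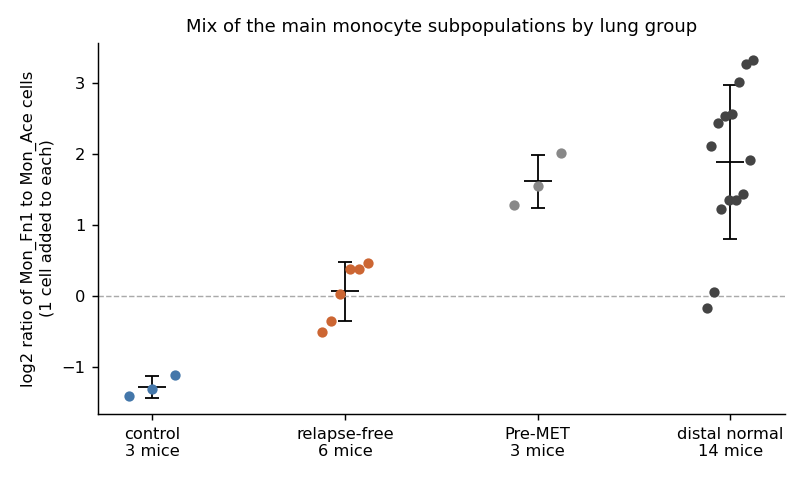
Log2 ratio of Mon_Fn1 to Mon_Ace cells for each mouse in 4 lung groups, with mean and SD; the dashed line marks equal numbers. Relapse-free mice (-0.50 to 0.46) stand above all 3 control mice (-1.41 to -1.11) and below all 3 Pre-MET mice (1.28 to 2.02), while distal normal lungs reach from -0.17 to 3.33.

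For expression, the UMIs of each mouse were summed over the monocytes and compared with edgeR. In such a sum, a shift between subpopulations and a change of RNA within cells cannot be told apart, so values within Mon_Ace and Mon_Fn1 are given too. One gene of 3815 (0.0262%) passed an adjusted p of 0.05. It was Ier3 (ENSMUSG00000003541; mm10 chr17:35821684-35822923, plus strand), an immediate early gene induced by NF-kappaB and growth signals that acts on cell survival. Control monocytes held 5.98, 4.11 and 0 counts per 1000000 UMIs (CPM) of it. Relapse-free monocytes held 43.7, 80.8, 119.7, 85.7, 146 and 317 CPM in mice 6, 7, 11, 18, 29 and 35, all above every control. Ier3 thus passed the low-count filter through relapse-free mice alone and could only be counted as higher. Ier3 rose by 5.03 ± 0.90 on the log2 scale (SE; 95% interval 3.16 to 6.89; edgeR adjusted p = 0.0404; DESeq2 adjusted p = 0.00831).

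The control level of Ier3 rested on 2 UMIs against 241 in relapse-free monocytes, a pooled ratio of 42.5 with a 95% counting interval of 11.6 to 353. In Mon_Ace cells 0 UMIs were found in control and 25 in relapse-free lungs, and in Mon_Fn1 cells 2 and 140. Control macrophages held 36 UMIs of it and control neutrophils 19, so the gene was detected in the control libraries. The log2 fold change of Ier3 in monocytes stayed between 4.45 and 5.43 when any 1 mouse was left out. The call was kept without mouse 6 or mouse 7 and lost without any 1 control (edgeR adjusted p = 0.21, 0.228 and 0.315 without control 1, 2 and 3) or without mouse 11 (0.112), 18 (0.063), 29 (0.129) or 35 (0.0798). It was also lost among cells of at least 1000 UMIs (0.39). In other lungs Ier3 was at 17.1 to 57.0 CPM in Pre-MET monocytes and at a median of 196 CPM in distal normal ones.

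Several other genes stood apart in monocytes but were called by DESeq2 alone, and they were chosen here after their values were seen. The share of all monocyte genes without overlap between the groups was not counted. Lack of overlap alone therefore does not set these genes apart from the rest. Vcan, a matrix proteoglycan of classical monocytes, was at 5.98, 8.22 and 13.9 CPM in controls and at 35.9 to 665 CPM (median 81.3) in relapse-free mice. Its log2 fold change was 4.48 ± 0.93 (edgeR adjusted p = 0.105; DESeq2 adjusted p = 0.00716). Its counts were 5 UMIs in control against 445 in relapse-free monocytes, a pooled ratio of 31.4 with a counting interval of 13.3 to 97.0. Mouse 35 held 279 of the 445, and without it the log2 fold change of Vcan in monocytes was 3.56. Like Ier3, Vcan passed the low-count filter through relapse-free mice alone and could only be counted as higher.

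Ifi30, a lysosomal thiol reductase that prepares antigens for MHC class II, was at 137, 169 and 166 CPM in controls and at 204 to 786 CPM (median 529.7) in relapse-free mice. The change of 1.75 ± 0.37 had the same edgeR adjusted p of 0.105. Within Mon_Ace alone it was at 46.1, 43.4 and 112 CPM against 152 to 368 CPM, a difference of 2.08 ± 0.63. The groups did not overlap for Ifi30 in either population.

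Flot1, a scaffold protein of membrane rafts, was at 23.9, 12.3 and 6.93 CPM in controls and at 58.3 to 255 CPM in relapse-free mice (3.00 ± 0.68; edgeR adjusted p = 0.105). Flot1 too passed the low-count filter through relapse-free mice alone and could only be counted as higher. Flot1 begins 306 bases past the end of Ier3 on the same strand (mm10 chr17:35823230-35832791), and whether reads of one gene were counted in the other was not tested. DESeq2 also called Ftl1-ps1 (1.77 ± 0.47) and AC126799.2 (1.84 ± 0.42), both higher in every relapse-free than in every control mouse.

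Cd36 and Hpgd had the opposite pattern. Cd36, a scavenger and fatty acid receptor, was at 400.4, 238 and 457 CPM in controls and at 42.4 to 179.6 CPM in relapse-free mice (-1.92 ± 0.42; edgeR adjusted p = 0.105; DESeq2 adjusted p = 0.013). Hpgd, which breaks down prostaglandins, was at 353, 279.5 and 249 CPM against 57.3 to 134 CPM (-1.52 ± 0.38; edgeR adjusted p = 0.249). All relapse-free mice lay below all controls for both. Inside Mon_Ace the differences were -1.29 ± 0.47 for Cd36 and -1.80 ± 0.59 for Hpgd, and neither passed the adjusted threshold there.

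**Figure D3:**
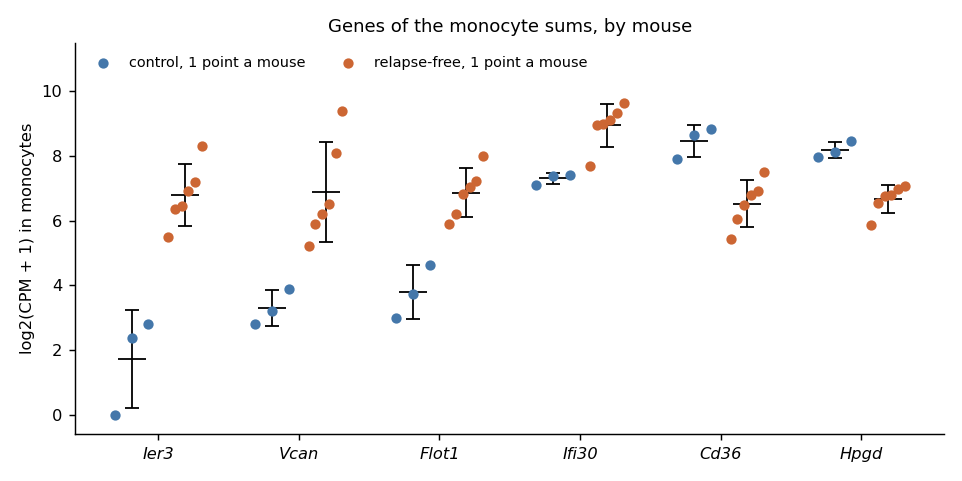
Level of 6 genes in the monocytes of each mouse, as log2(CPM + 1), with mean and SD over 3 control and 6 relapse-free mice. Ier3, Vcan, Flot1 and Ifi30 lie higher in all relapse-free mice and Cd36 and Hpgd lower. Ier3 is the 1 gene of these past an edgeR adjusted p of 0.05, and the others were chosen after their values were seen.

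The gene lists of both monocyte forms were then counted at an unadjusted p below 0.05, where 3.43% of all monocyte genes were higher in relapse-free lungs and 2.2% lower. Of 29 tested genes of the classical inflammatory monocyte list, 13 were higher and 0 lower, and the median log2 fold change was 0.62 against 0.01 over all genes. Fn1 was at 323, 169 and 173 CPM in controls and at 207 to 1118 CPM in relapse-free mice (1.43 ± 0.43). F13a1, the A chain of clotting factor XIII, was at 227, 226 and 194 CPM and at 233 to 839 CPM (1.06 ± 0.38). Thbs1, S100a6, Lgals3, Hp, Chil3 and S100a8 were among the others. None of them passed the adjusted threshold.

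Leaving out 1 mouse gave 9 to 15 genes of this list, and leaving out mice 6 and 7 gave 16. The list shares genes with the neutrophil list, among them Chil3, S100a8 and S100a9, and 9 of the 25 genes tested that are not on the neutrophil list were higher with 0 lower. Summed markers of neutrophils (8 genes, all detected) were at 275 to 679 CPM in control and 204 to 3566 CPM in relapse-free monocytes, and their part in the counts was not tested. S100a8, a calcium-binding alarmin of neutrophils and classical monocytes, reached 2402 CPM in relapse-free monocytes against 423 CPM at most in controls (1.70 ± 0.60).

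Of 24 tested genes of the non-classical list, 7 were lower and 1 higher, 22 had a negative log2 fold change and the median was -0.57. Over all 3815 genes of the monocyte test, 1886 had a negative log2 fold change. Leaving out 1 mouse gave 5 to 10 lower genes, and it was 3 lower with all tissue groups in 1 fit and 4 lower with cells of at least 1000 UMIs. Gngt2, a G protein subunit, was at 2749, 2663 and 3471 CPM in controls and at 1065 to 2317 CPM in relapse-free mice (-0.74 ± 0.26). Adgre4, an adhesion receptor, was at 370.5, 267 and 429.6 CPM against 132 to 207 CPM (-1.01 ± 0.33), and Spn, the sialophorin CD43, at 317, 481 and 346 CPM against 117 to 277 CPM (-0.84 ± 0.34). The gene higher was Tgfbi (0.93 ± 0.38), a secreted matrix protein. Clec4a3, a lectin receptor of the list, differed by -0.38 ± 0.29 with an interval of -0.98 to 0.21, and by -0.49 to -0.23 when 1 mouse was left out. Lyz2, the lysozyme of all myeloid cells, was at 22166 to 27226 CPM in control and 20848 to 45345 CPM in relapse-free monocytes (0.17 ± 0.21), with overlapping groups.

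Immediate early genes, to which Ier3 belongs, went both ways in monocytes: 4 of 34 were higher and 2 lower at an unadjusted p below 0.05, with a median of 0.21. Without mouse 35 the count was 1 higher and 2 lower. Over all mice left out in turn it ran from 1 to 5 higher, and the median from 0.094 to 0.33. Egr1, a transcription factor that growth signals induce within minutes, was among the higher (1.08 ± 0.52). Klf2, which keeps monocytes and T cells quiescent, was at 765, 871 and 935 CPM in controls and at 429.7 to 824 CPM in relapse-free mice (-0.64 ± 0.27). Ly6d, a surface protein of early B cells, was lower in every relapse-free mouse (0 to 36.4 CPM) than in the controls (71.7, 201 and 111 CPM; -3.21 ± 0.72; edgeR adjusted p = 0.105). Ly6d passed the low-count filter through control mice alone and could only be counted as lower. Immunoglobulin transcripts summed to 360 to 442 CPM in control and 71.8 to 328 CPM in relapse-free monocytes, and their part in the Ly6d difference was not tested.

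Within a subpopulation fewer genes of these lists were counted, while single genes differed by less or by more than in all monocytes. The sums were also smaller there, with 36474 to 74429 UMIs in control Mon_Fn1 against 144321 to 243295 in control monocytes. The part of this size in the lower counts was not tested. In Mon_Ace 1.69% of genes were higher and 1.64% lower at an unadjusted p below 0.05. Of 23 non-classical genes 2 were lower there (0 to 3 when 1 mouse was left out). Their median was -0.30, and -0.39 to -0.10 when 1 mouse was left out. In Mon_Fn1, where 3.3% were higher and 2.61% lower, 4 of 25 classical genes were higher (Chil3, Hp, S100a8 and S100a9), of which Hp, a haemoglobin-binding plasma protein, is the 1 outside the neutrophil list. Leaving out 1 mouse gave 2 to 7 of them, and without mice 6 and 7 it was 9 of 25 higher and 1 lower, and 5 of 21 higher outside the neutrophil list. S100a8 differed by 2.90 ± 0.82 in Mon_Fn1 and Chil3 by 1.46 ± 0.62. Hp was at 628, 739 and 548 CPM in control and at 779.8 to 2287 CPM in relapse-free Mon_Fn1 cells (1.26 ± 0.39; edgeR adjusted p = 0.588). No gene was called within Mon_Ace (of 2255) or Mon_Fn1 (of 1455) by edgeR or DESeq2.

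Interferon-response genes leaned the other way inside Mon_Fn1. All 20 tested members of the type I interferon list had a negative log2 fold change, with a median of -0.70 against -0.02 over all genes. Of them, 4 were lower at an unadjusted p below 0.05 (Ifi204, Xaf1, Rtp4 and Slfn5). Ly6e, an abundant member, differed by -0.19 ± 0.28. Leaving out 1 mouse gave 2 to 5 lower genes. Counted in all monocytes, 2 of 35 were lower (Xaf1 and Rtp4) and the median was -0.04. When genes with low counts were kept, the Mon_Fn1 median was -0.28 over 46 genes, against 0.91 over all genes.

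**Figure D4:**
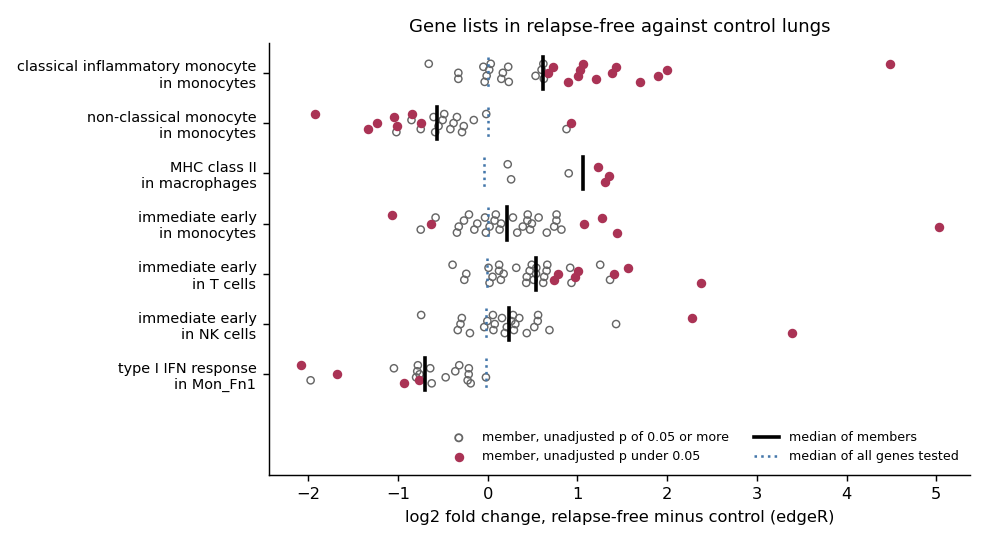
Log2 fold change (relapse-free minus control, edgeR) of the members of gene lists, each in the population named at the left. Filled points have an unadjusted p under 0.05, black bars are the members' median and dotted lines the median of all genes tested. Classical monocyte genes centre at 0.62 and non-classical ones at -0.57; Ier3, at 5.03 in monocytes, is the 1 point that passed the adjusted threshold.

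Macrophages of the lung are mostly alveolar macrophages, which clear surfactant and inhaled particles. They made up 8.31% ± 1.44 of immune cells in control and 6.21% ± 6.52 in relapse-free lungs. Mouse 29 held 18.2%, and without it the relapse-free mean was 3.81% ± 3.11 (exact permutation p = 0.0714). Mice 18 and 35 held 5 and 4 macrophages, so 4 relapse-free mice entered the expression test. One gene of 2443 (0.0409%) was called, Ftl1-ps1 (mm10 chr13:74399694-74407346), a near copy of the ferritin light chain gene Ftl1. It was at 507, 457 and 488 CPM in controls and at 2032, 1295, 1177 and 3442 CPM in relapse-free mice 6, 7, 11 and 29 (1.99 ± 0.37; edgeR adjusted p = 0.0407; pooled ratio 3.65 with a counting interval of 3.13 to 4.27).

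Reads with several matches in the genome were left out by the authors, and how that divides the reads of the 2 ferritin genes is not known, so this result is uncertain. Ftl1 itself, which carries iron stores, was at 12681, 12976 and 11431 CPM in controls and at 15993 to 17425 CPM in relapse-free mice. The difference was 0.39 ± 0.20 with an interval of -0.02 to 0.80, and 0.25 to 0.40 when 1 mouse was left out. Ftl1-ps1 was also higher in all relapse-free than all control mice in monocytes (1.77 ± 0.47, and 1.17 without mouse 29) and T cells (1.69 ± 0.51), without passing the edgeR threshold there. The log2 fold change of Ftl1-ps1 in macrophages was 1.93 without mouse 6, 1.63 without mouse 29 and 1.90 to 1.96 without 1 control, and the call was lost each time.

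Genes of antigen presentation by MHC class II leaned higher in relapse-free macrophages. Of 6 tested, all had a positive log2 fold change, with a median of 1.07 against -0.04 over all genes. At an unadjusted p below 0.05, where 1.88% of macrophage genes were higher and 2.33% lower, 3 of them were higher. H2-Aa, an alpha chain, was at 831, 389 and 1389.5 CPM in controls and at 1238 to 2978 CPM in relapse-free mice (1.23 ± 0.40). H2-Ab1 was at 2693, 778 and 2377 CPM against 1807 to 8838 CPM (1.35 ± 0.46), and H2-Eb1 had a difference of 1.31 ± 0.47. The groups overlapped for each. The count of 3 ranged from 0 to 4 when 1 mouse was left out, with medians of 0.68 to 1.30: it was 0 of 6 without control mouse 2, which had the lowest levels of these 3 genes, and 0 of 7 with all tissue groups in 1 fit. Without that control the log2 fold change of H2-Aa in macrophages was 0.82 and that of H2-Eb1 0.83.

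In monocytes the same gene pointed down: H2-Ab1 was at 3574, 5799.5 and 3069.5 CPM in controls and at 660.1 to 4076 CPM in relapse-free mice (-0.80 ± 0.36). Of the macrophage list for complement and lipid handling, 2 of 18 were higher in macrophages, C1qb (1.68 ± 0.71), a chain of complement C1q, and Apoe (1.58 ± 0.54), the lipid carrier. Both are typical of interstitial macrophages. The log2 fold change of C1qb in macrophages was 1.03 without control mouse 2 and 2.74 without control mouse 3, and that of Apoe was 0.89 without mouse 11. The Mac_Cd81 subpopulation took 7.42% ± 4.18 of control and 23.2% ± 21.4 of relapse-free macrophages (5 mice; exact permutation p = 0.286). Mouse 18, which did not enter the expression sums, held 3 such cells among 5, and without it the relapse-free mean was 13.99% ± 6.85. The subpopulation's part in these gene differences was not tested. Of the alveolar macrophage list, 1 of 26 was higher and 0 lower, and Chil3 was at 8543 to 12274 CPM in control and 6846 to 11324 CPM in relapse-free macrophages.

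T cells made up 39.7% ± 1.65 of control and 35.5% ± 6.17 of relapse-free immune cells, and none of 5785 genes was called by edgeR (0%). At an unadjusted p below 0.05, 170 genes (2.94%) were higher and 72 (1.24%) lower, and DESeq2 called 12. These 242 genes are fewer than the threshold of 0.05 alone would give with no difference. That also held in macrophages (103 of 2443), NK cells (132 of 3235), neutrophils (16 of 470) and B cells (34 of 1152). Monocytes, with 215 of 3815, had slightly more. Immediate early genes, which cells switch on within minutes of activation, stress or digestion of a tissue, leaned higher. Of 33 tested, 30 had a positive log2 fold change, and 7 were higher and 0 lower at an unadjusted p below 0.05. Their median was 0.54, against -0.01 over all genes. Jun, a subunit of AP-1, was at 6.45, 31.6 and 32.5 CPM in controls and at 72.0 to 258 CPM in relapse-free mice (2.38 ± 0.60; edgeR adjusted p = 0.248; DESeq2 adjusted p = 0.025). Cd69, an early activation receptor that holds T cells in tissue, differed by 0.78 ± 0.35, and Rgs1 by 1.00 ± 0.42.

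The number of immediate early genes higher in T cells ran from 2 to 8 when 1 mouse was left out, and it was 11 without mice 6 and 7. Both groups were digested by the same protocol (15 min at 37 °C), and differences of handling between the batches were not tested.

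Genes of memory and migration were mixed. S100a4, a marker of effector and memory T cells, was at 158, 118 and 215 CPM in controls and at 175 to 1148 CPM in relapse-free mice (1.66 ± 0.42; edgeR adjusted p = 0.248; DESeq2 adjusted p = 0.0479). Ikzf2 (Helios), a transcription factor of regulatory and activated T cells, was at 2.88 to 16.1 CPM against 24.0 to 132 CPM without overlap (3.11 ± 0.77; edgeR adjusted p = 0.217). Id3, which holds T cells in a resting or memory state, had 0 UMIs in all 3 controls and 68 in relapse-free mice, where it ranged from 0 (mouse 29) to 72.0 CPM. Ikzf2 and Id3 passed the low-count filter through relapse-free mice alone and could only be counted as higher. Of the naive and memory T cell list, 2 of 30 were higher (Cd44 and S100a4) and 1 was lower (Klf3).

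Of 13 cell cycle genes tested in T cells, 3 were higher and 0 lower. Top2a, a topoisomerase of dividing cells, was at 0 CPM in all 3 controls and at 3.73 to 57.4 CPM in relapse-free mice. It thus passed the low-count filter through relapse-free mice alone, could only be counted as higher, and rests on few UMIs. Mki67 was at 3.22 to 12.2 CPM in controls against 0 to 175 CPM in relapse-free mice. Mki67 also passed the filter through relapse-free mice alone and could only be counted as higher. In cytotoxic genes, 0 of 22 were higher or lower, and Ccl5, an effector chemokine, was at 6816 to 12508 CPM in control and at 2526 to 14756 CPM in relapse-free T cells (-0.51 ± 0.39, interval -1.31 to 0.28). The log2 fold change of Ccl5 in T cells was -0.17 without control mouse 1 and -0.93 without mouse 7.

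The DESeq2 calls in T cells also held genes that are not about T cell function. Iglj1 is an immunoglobulin light chain segment that T cells do not use. It was at 51.6, 193 and 268 CPM in controls and at 0 to 57.4 CPM in relapse-free mice (-3.36 ± 0.70). B cells were 9.75% ± 1.20 of control and 6.41% ± 3.52 of relapse-free immune cells (exact permutation p = 0.179). Their part in the Iglj1 difference was not tested. Gm12319, Gm17087, AC158620.2, Snord15a, Myl6b and Cep85, some of which are small or unnamed, were higher. Gm12319 (lincRNA) was at 25.8 to 51.8 CPM in control and 67.1 to 463 CPM in relapse-free T cells (2.37 ± 0.56), and it was also higher in NK cells (3.20 ± 0.65). Neutrophil markers summed to 148 to 394 CPM in control and 123 to 3311 CPM in relapse-free T cells, and S100a8 was among the genes higher there (1.97 ± 0.69), at most 289 CPM in controls and 2092 CPM in relapse-free mice.

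By subpopulation, T_CD8_Lag3, CD8 T cells named for an inhibitory receptor of chronic stimulation, took 0.711% ± 0.286 of control and 1.72% ± 0.720 of relapse-free T cells. The mice did not overlap (0.427 to 1.00% against 1.05 to 2.97%), with an exact permutation p of 0.0476 and an adjusted p of 0.397. The difference rests on 1 to 3 cells in each control and 1 to 7 in each relapse-free mouse. The log2 ratio of activated to naive T cells was -0.62 ± 0.21 in control and -0.70 ± 0.51 in relapse-free lungs (exact permutation p = 0.845). Its sign turned when only cells of at least 1000 UMIs were kept (difference 0.47) or when control mouse 1 was left out (0.04).

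NK cells, which kill stressed and tumor cells without prior priming, were 17.4% ± 2.20 of control and 14.7% ± 3.40 of relapse-free immune cells, and NK_Ncr1 was 98.3% ± 0.881 and 96.1% ± 4.45 of them. None of 3235 genes was called by edgeR (0%), with 86 (2.66%) higher and 46 (1.42%) lower at an unadjusted p below 0.05 and 2 called by DESeq2. One of these was Nfkbia, the NF-kappaB inhibitor that the pathway itself induces. It was at 142, 73.1 and 133 CPM in controls and at 257 to 932 CPM (median 588) in relapse-free mice (2.28 ± 0.49; edgeR adjusted p = 0.100; DESeq2 adjusted p = 0.0048), with no overlap.

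Ccl4, a chemokine that activated NK cells release, was at 888, 1031 and 950.1 CPM in controls and at 1605 to 4236 CPM in relapse-free NK cells (1.31 ± 0.34; edgeR adjusted p = 0.397). DESeq2 called it within NK_Ncr1. Of 20 cytotoxic and effector genes tested, 2 were higher (Ccl4 and Xcl1, which draws dendritic cells, 1.07 ± 0.51) and 0 lower. The log2 fold change of Xcl1 in NK cells was 0.70 without control mouse 3 and 0.48 without mouse 35. The granule protease Gzma was at 9692 to 15023 CPM in relapse-free and 11060 to 14055 CPM in control NK cells, a difference of -0.08 ± 0.20 with an interval of -0.48 to 0.33. Of 26 immediate early genes, 2 were higher, Nfkbia and Jun (3.39 ± 1.16), and 1 to 3 when 1 mouse was left out, the lowest without mouse 6. Neutrophil markers summed to 142 to 388 CPM in control and 147 to 3384 CPM in relapse-free NK cells.

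Neutrophils, the short-lived phagocytes of acute inflammation, varied most between relapse-free mice. They made up 1.90, 4.60 and 5.18% of immune cells in control mice 1, 2 and 3, and 2.147, 7.52, 22.4, 19.4, 0 and 25.0% in relapse-free mice 6, 7, 11, 18, 29 and 35. The means of 3.90% ± 1.75 and 12.8% ± 10.9 were not called apart (exact permutation p = 0.274). Mouse 29 had 0 neutrophils among 148 cells, and mouse 6 lay inside the control range. Among relapse-free mice the share rose in the order of depth. Median UMIs per cell were 691, 914, 1237.5, 1381, 1483 and 1946 in mice 29, 6, 7, 18, 11 and 35. In control mice 1, 2 and 3 they were 1023, 1057 and 929.5, and the control shares did not follow that order. The part of depth in the neutrophil shares was not tested. The log2 ratio of neutrophils to lymphocytes was -4.17 ± 0.77 in control and -2.98 ± 2.16 in relapse-free lungs (exact permutation p = 0.429). The difference of 1.19 was 0.746 without control mouse 1 and 1.86 without mouse 29. With cells of at least 1000 UMIs the difference of this ratio was 2.02 and passed the threshold before adjustment (exact permutation p = 0.0476). At that limit 1 control and 3 relapse-free mice had enough neutrophils for an expression sum, against 3 and 5 in the main setting. The part of this loss of neutrophils in the larger difference was not tested.

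The neutrophils themselves were mostly Neut_Ptgs2 in control lungs, 84.6, 72.2 and 83.9% of them. In relapse-free lungs Neut_Ptgs2 took 91.7, 35.3, 33.6, 41.0 and 75.7% in mice 6, 7, 11, 18 and 35, and the exact permutation test gave p = 0.196. Neut_Ifit3, neutrophils with interferon genes, took 35.3, 22.4 and 33.3% in mice 7, 11 and 18, but 0 and 2.70% in mice 6 and 35, against 0 to 8.33% in controls. Of 470 genes tested none was called by edgeR (0%) or DESeq2, and 11 (2.34%) were higher and 5 (1.06%) lower at an unadjusted p below 0.05 in edgeR. Slpi, an inhibitor of neutrophil proteases, was at 289, 526 and 506 CPM in controls and at 568 to 2169 CPM in relapse-free mice (1.53 ± 0.55; edgeR adjusted p = 0.927). Of 23 granule and maturation genes, 3 were higher (Slpi, Stfa2l1 and Retnlg, a resistin-like secreted protein, 0.95 ± 0.43) and 0 lower, with a median of -0.01. S100a8 differed by -0.07 ± 0.41 in neutrophils, and its sign turned under other settings.

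B cells, which make antibodies, had none of 1152 genes called by edgeR (0%) or DESeq2, with 17 (1.48%) in each direction at an unadjusted p below 0.05 in edgeR. Ighm, the heavy chain of IgM, was at 2676 to 5006 CPM in control and 2886 to 5979 CPM in relapse-free B cells (0.22 ± 0.37, interval -0.54 to 0.98), and Cd79a, a signalling chain of the B cell receptor, was the 1 gene of 15 on the B cell list that was higher (1.47 ± 0.65). Cd74, the chain that guides MHC class II to the endosome, was at 1323, 1956 and 1857 CPM in controls and at 1477 to 8188 CPM in relapse-free B cells (1.03 ± 0.49). Mouse 35 weighed on both: without it the log2 fold change of Cd79a in B cells was 0.70 and that of Cd74 in B cells 0.41. No gene was called by edgeR within T_CD4_Lef1 (of 3397), T_CD8_Gzmk (of 1168), NK_Ncr1 (of 3144) or Neut_Ptgs2 (of 335), with 144, 46, 128 and 23 genes at an unadjusted p below 0.05. Within all 6 subpopulations together DESeq2 called 3 genes, all in NK_Ncr1.

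At the level of whole lineages none of 7 (0%) was called by its share of immune cells. Monocytes were 17.9% ± 1.08 in control and 20.2% ± 3.36 in relapse-free lungs (exact permutation p = 0.321), so the difference in their mix stood beside no called difference in their share. Dendritic cells were 3.05% ± 0.490 and 4.23% ± 3.02. The whole composition over 26 subpopulations gave a pseudo-F of 1.22 (exact permutation p = 0.321), and 0.722 to 1.94 when 1 mouse was left out. The spread between relapse-free mice exceeded that between controls in every lineage, from 3.02 to 10.9 percentage points (SD) against 0.490 to 2.20. The controls shared 1 batch, whereas the relapse-free mice came from several batches and held 148 to 743 cells each. The part of batch, depth and cell number in this spread was not tested.

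**Figure D5:**
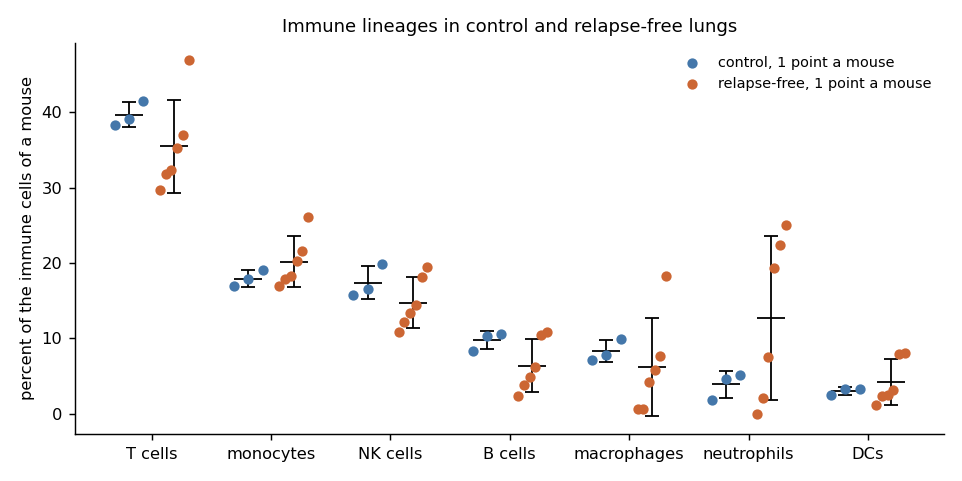
Share of 7 lineages among the immune cells of each mouse, in percent, with mean and SD over 3 control and 6 relapse-free mice. Relapse-free neutrophils reach from 0 to 25.0% and macrophages from 0.673 to 18.2%, and no lineage separates the groups.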

How the data were processed

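The authors deposited raw UMI counts per gene and well for each 384-well plate, with a table giving each well's plate, sequencing batch and metacell annotation; per the labels, reads were demultiplexed with bcl2fastq 2.15.0.4 and the build was mm10. Wells with a used annotation and at least 500 UMIs were kept. Counts were summed per mouse and population (10 cells or more) and compared with edgeR 4.0.16 (TMM, low-count filter, quasi-likelihood F test, Benjamini-Hochberg adjusted p below 0.05; SE derived from the F statistic), in R 4.3.3. CPM are sums scaled to 1000000. DESeq2 1.42.0, other size factors, no filter, stricter cell limits, added GFP-gated plates, all tissue groups in 1 fit and each mouse left out were alternatives. Shares and ratios were compared by two-sided exact permutation over mice (scipy 1.17.1); a share needed 5 cells of its lineage and was called at an unadjusted p below 0.05. The comparison of the monocyte ratio with other lungs and the fits without mice 6 and 7 were added after the data were seen.

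Genes were named where called with no overlap between groups and at least 50 CPM in the higher group, or as list members (called ones, otherwise those of highest level); others are named as chosen after their values were seen, as were all list members given at an unadjusted p. Members and gene lists were chosen with earlier results of these data known. The share of all genes tested that had no overlap between the groups was not counted in any population. Gene places are from GENCODE vM21 (48106 of 52634 symbols matched). The edgeR fit of each lineage was checked on simulated counts, and the other tests were not. No 2 mice had counts within sampling noise of each other, and no well identifier was shared between plates. Doublets were gated out in the sort, per the labels, and no caller was run. Some genes are not reported here by name.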

Additional observations from a re-analysis of the deposited data

Results flagged for a closer look

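Of 46 sets of relapse-free values checked, 7 held 1 mouse farther from the rest than Dixon's 95% limit, which chance alone exceeds in about 1 of 20 independent sets. The 3 control mice were too few to check. The 7 are not independent, since NK_Ncr1 and NK_Xcl1 add up to all NK cells and the values of mouse 7 share T cells. In monocytes, mouse 35 had 317 CPM of Ier3 against 43.7 to 146 CPM in the other 5 relapse-free mice, and 665 CPM of Vcan against 35.9 to 272 CPM.

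In mouse 7, T_CD4_Lef1 made up 38.8% of T cells against 56.1 to 62.3% in the others, and its log2 ratio of activated to naive T cells was 0.30 against -1.03 to -0.73. In mouse 29, the smallest and shallowest, NK_Ncr1 was 87.5% and NK_Xcl1 12.5% of NK cells, against 95.1 to 99.1% and 0.935 to 4.88% in the others. Mac_Gpnmb was 3.704% of the macrophages of mouse 11, a single cell of 27, and 0 in the other 4 relapse-free mice with at least 5 macrophages. Mouse 35, with too few macrophages to enter, held 2 such cells among 4. No explanation for these values was tested.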

How the results depend on the processing

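The number of genes called in monocytes was 1, and it became 0 with cells of at least 1000 UMIs, 8 with DESeq2, 4 with the GFP-gated plates added, 12 with no low-count filter, 8 without mice 6 and 7, and 0 to 3 when 1 mouse was left out. In macrophages 1 became 0 with all tissue groups in 1 fit, 0 with cells of at least 1000 UMIs, 4 without mice 6 and 7, and 0 to 1 when 1 mouse was left out. In T cells 0 became 2 with all tissue groups in 1 fit, 12 with DESeq2, 7 with no low-count filter and 12 without mice 6 and 7. In NK cells 0 became 2 with DESeq2, 4 with no low-count filter, 2 without mice 6 and 7, and 0 to 2 when 1 mouse was left out. In neutrophils 0 became 13 with cells of at least 1000 UMIs, where 1 control was left and was assumed to vary like the relapse-free mice, 1 with the GFP-gated plates added, and 0 to 1 when 1 mouse was left out. Within subpopulations 0 became 3 with all tissue groups in 1 fit, 3 with DESeq2, 1 with the GFP-gated plates added, 10 with no low-count filter, 12 without mice 6 and 7, and 0 to 9 when 1 mouse was left out.

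Lineages called by share went from 0 to 1 (NK cells) without mice 6 and 7 and ranged from 0 to 1 when 1 mouse was left out. Subpopulations called by share went from 3 to 1 with all immune cells as the denominator and to 1 without mice 6 and 7. The difference in the log2 ratio of activated to naive T cells turned to 0.47 with cells of at least 1000 UMIs and ranged from -0.28 to 0.039 when 1 mouse was left out. That of neutrophils to lymphocytes was 2.02 with cells of at least 1000 UMIs, and that of Mon_Fn1 to Mon_Ace was 1.46 without mice 6 and 7 and 1.26 to 1.46 when 1 mouse was left out.

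Of 1197 values of 73 pairs of a gene and a population (57 genes), 13 in 5 pairs changed sign. Lyz2 in monocytes was -0.049 with cells of at least 1000 UMIs and -0.019 to 0.24 when 1 mouse was left out. Gzma in NK cells was 0.061 with cells of at least 1000 UMIs, 0.026 with at least 20 cells a sum and -0.21 to 0.026 when 1 mouse was left out. S100a8 in neutrophils was 0.32 with no low-count filter, 0.046 with the GFP-gated plates added, 0.046 without mice 6 and 7 and -0.37 to 0.28 when 1 mouse was left out. Ighm in B cells was -0.0019 with no low-count filter and 0.021 to 0.54 when 1 mouse was left out. Ly6e in Mon_Fn1 was -0.32 to 0.060 when 1 mouse was left out. The cause of these changes was not tested. No paired analysis was possible because the control and relapse-free mice share no replicate number. Mouse 29, with 148 cells, and the macrophages of mice 18 and 35 limit what can be detected.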
